A study of Mus musculus with 165 samples.

Results

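*Lyz1*, *Lyz2*, *Slpi*, *Wfdc17* and *Wfdc21* are the lysozyme genes and the genes of whey acidic protein (WAP) domain proteins followed here, 5 of the 36255 genes whose expression was measured during the differentiation of PUER cells. They were chosen by symbol. PUER cells are a line of myeloid progenitors from *Spi1*-/- mice, for which the study names both fetal liver and bone marrow as the source. They have no PU.1 of their own and carry a fusion of PU.1 with the hormone-binding part of an estrogen receptor. The fusion becomes active when 4-hydroxy-tamoxifen (OHT) is added, so the undifferentiated cells are mutant cells and all values come from a single line. PolyA RNA was sequenced from undifferentiated cells in 5 ng/mL IL3 (3 libraries) and from cells whose IL3 was replaced by 10 ng/mL GCSF for 48 h before OHT (GCSF 0h, 3 libraries). The titles of the GCSF 0h libraries name OHT while their other labels and the study's methods place them before it, and they are taken here as cells without OHT. It was also sequenced at 27 time points over 168h of OHT, the earliest at 1h, in GCSF with 100 nM OHT (GCSF-OHT, the neutrophil course, 78 libraries) and in IL3 with 200 nM OHT (IL3-OHT, the macrophage course, 81 libraries). The undifferentiated cells start both courses, so comparisons of either course with them share these 3 libraries. The cytokine and the OHT dose differ together between the courses and cannot be told apart. No cells without OHT were followed to 168h, so OHT and time in culture cannot be told apart either. Part of the medium was replaced and fresh OHT added at 40h, 88h and 136h. Each time point had a plate of its own, and cells were detached with trypsin at all time points after 24h. IL3-OHT 96h and 144h, which the study left out, are left out here unless named, which leaves 25 time points that the courses share.

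Lysozyme cleaves the peptidoglycan of bacterial cell walls. Mice carry a pair of lysozyme genes, *Lyz2*, which encodes the lysozyme of macrophages and neutrophils, and *Lyz1*, which encodes the lysozyme of Paneth cells of the gut. *Slpi* encodes the secretory leukocyte protease inhibitor, a secreted inhibitor of neutrophil elastase and cathepsin G. *Wfdc17* and *Wfdc21* encode small secreted proteins of the same WAP four-disulfide core (WFDC) family.

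The lysozyme genes are neighbours on chromosome 10 of GRCm38, on the minus strand, with *Lyz2* at 117277331 to 117282321 (ENSMUSG00000069516), *Lyz1* at 117287797 to 117292868 (ENSMUSG00000069515) and 5475 bases between them. *Slpi* lies on chromosome 2 at 164354070 to 164389095 on the minus strand (ENSMUSG00000017002). *Wfdc17* (chromosome 11, 83703991 to 83706268, ENSMUSG00000069792) and *Wfdc21* (chromosome 11, 83746940 to 83752642, ENSMUSG00000051748) lie on the plus strand with 40671 bases between them. The coding parts of *Lyz1* and *Lyz2* are both 444 bases long and differ at 22 of them, and their transcripts share 422 windows of 31 bases, 34.2% of those of *Lyz1* and 32.8% of those of *Lyz2*. Reads from the shared stretches could have come from either gene, and how they were divided between the genes was not tested. *Wfdc17*, *Wfdc21* and their neighbour *Wfdc18* share 0 such windows.

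The sequences before the transcription starts of the lysozyme genes (RefSeq, GRCm38.p6, minus strand, 5′ to 3′) are shown because the genes lie side by side and moved together. In an alignment of the 250 bases before each start, 200 bases were identical, 48 were mismatched and 4 stood opposite a gap (79.4% of the alignment identical), and the 50 bases next to the start were identical. Capitals mark the bases that differed or stood opposite a gap. The 49 bases nearest the start of *Lyz2* belong to an annotated exon and are not shown.
*Lyz1* (chr10:117292869-117293118): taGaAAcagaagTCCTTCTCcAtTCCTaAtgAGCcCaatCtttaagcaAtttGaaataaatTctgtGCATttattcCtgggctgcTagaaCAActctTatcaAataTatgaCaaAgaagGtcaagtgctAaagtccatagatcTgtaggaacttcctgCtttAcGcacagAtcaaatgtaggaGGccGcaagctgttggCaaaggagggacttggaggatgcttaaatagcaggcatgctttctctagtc
*Lyz2* (chr10:117282322-117282522): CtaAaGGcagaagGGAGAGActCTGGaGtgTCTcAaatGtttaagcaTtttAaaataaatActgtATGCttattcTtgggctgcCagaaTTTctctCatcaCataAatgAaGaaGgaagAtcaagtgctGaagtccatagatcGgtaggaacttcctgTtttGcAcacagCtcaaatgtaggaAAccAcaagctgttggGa

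The same stretches of *Slpi* (minus strand) and *Wfdc17* (plus strand) are shown for comparison, as their time courses went apart. The start used for *Slpi* lies inside its annotated span, which holds 3 transcripts, and not at the upstream end of that span. Capitals mark matches to TTNNGNAA, a motif bound by C/EBP factors of myeloid cells, searched on both strands. Of 32851 promoters of the table, 36.8% held this motif in their 250 bases and 23.3% held GAGGAA, a core motif of PU.1. *Slpi* had 3 matches to TTNNGNAA and *Wfdc17* had 2, while *Lyz1* had 1, inside the stretch above, and the 1 match of *Lyz2* began in the last bases shown and ran into the exon part. GAGGAA was found in *Wfdc17* alone, on the reverse strand of its exon part, and for *Wfdc17* the 65 bases nearest the start are not shown. A match is a description of the letters and not of binding, and the table holds 4 of the 5 genes.
*Slpi* (chr2:164356508-164356757): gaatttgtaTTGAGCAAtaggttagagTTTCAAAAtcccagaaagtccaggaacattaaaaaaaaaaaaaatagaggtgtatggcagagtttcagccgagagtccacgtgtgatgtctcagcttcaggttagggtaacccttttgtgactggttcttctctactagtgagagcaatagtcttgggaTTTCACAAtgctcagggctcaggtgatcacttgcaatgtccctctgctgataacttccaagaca
*Wfdc17* (chr11:83703806-83703990): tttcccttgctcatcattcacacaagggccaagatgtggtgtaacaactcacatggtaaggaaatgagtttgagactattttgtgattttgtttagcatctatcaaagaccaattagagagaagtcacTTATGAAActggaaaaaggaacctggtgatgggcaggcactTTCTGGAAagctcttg

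The libraries held 14600246 to 33147945 reads on genes (median 21960878). The values are normalized counts, which are reads divided by a size factor of the library, and the detection floor used here, 3 reads in a library, corresponds to 1.96 to 5.51 normalized counts. Replicates correlated with Pearson's r of at least 0.980 across genes (162 pairs). Of the 54 groups used, GCSF-OHT 96h, 112h and 152h had 2 libraries and the others had 3. The replicates are wells of a single line, so p-values measure the spread between wells. Tests were run by limma on normalized counts in log2 after adding 1. A difference was called where its adjusted p lay under 0.05 and its log2 size over 0.58. All 5 genes were among the 17414 genes tested.

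Among the cell type markers, neutrophil and monocyte genes were both present. The summed normalized count of 9 neutrophil markers ran from 135400 to 144300 in undifferentiated cells, from 199700 to 225900 at GCSF 0h, from 158700 to 187300 at IL3-OHT 168h and from 521000 to 557300 at GCSF-OHT 168h. That of 9 monocyte and macrophage markers ran from 2229 to 2467, from 845.5 to 1166, from 6443 to 7132 and from 8523 to 10420 in the same groups. A few genes carried these sums, *S100a8*, *S100a9* and *Ngp* that of the neutrophil markers and *Cd68*, *Cx3cr1* and *Ccr2* that of the others. Not all members moved with the sums. *Ngp* had means of 40550 in undifferentiated cells, 33760 at IL3-OHT 168h and 41100 at GCSF-OHT 168h. From undifferentiated cells to 168h, 6 of the 9 neutrophil markers were higher and 3 not called in GCSF, and 3 were higher, 2 lower and 4 not called in IL3. Of the 7 monocyte and macrophage markers tested, 3 were higher, 1 (*Mrc1*) was lower and 3 were not called in GCSF, while 5 were higher and 2 not called in IL3. *Cd68* went from a mean of 2226 to 1576 in GCSF, which was not called, and to 3471 in IL3, which was. *C1qa* and *C1qb*, complement genes of tissue macrophages, had at most 3 reads in any library. Markers of mast cells and basophils, of eosinophils, of erythroid cells and megakaryocytes and of lymphoid cells summed to at most 426.5 normalized counts in these groups and at GCSF 0h. The part of the neutrophil and monocyte genes' changes in the values of the 5 genes was not tested, and in bulk RNA a change in the number of cells and a change in RNA per cell cannot be told apart.

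Per kilobase of transcript, *Lyz2* stood far above the other members at the end of both courses. At GCSF-OHT 168h it reached 940532 ± 18477 normalized counts per kilobase (SD, n = 3), followed by *Slpi* with 27499 ± 1653, *Wfdc21* with 25333 ± 1269, *Lyz1* with 825 ± 56.7 and *Wfdc17* with 412 ± 37.4. *Slpi* and *Wfdc21* were neighbours in this order whose difference was smaller than their summed SDs. In undifferentiated cells the order was another. There *Slpi* led with 59396 ± 5614 normalized counts per kilobase, followed by *Lyz2* with 10770 ± 263 and *Wfdc21* with 5613 ± 335, and *Lyz1* and *Wfdc17* were at a few reads per library.

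*Lyz2*, the lysozyme of myeloid cells, rose when GCSF replaced IL3 and rose after OHT in both cytokines. Its normalized count was 14397, 14347 and 13775 in the undifferentiated libraries, and 56239, 60716 and 63334 at GCSF 0h. At IL3-OHT 168h it was 793918, 830056 and 790769, and at GCSF-OHT 168h it was 1214530, 1235670 and 1263030. The 4 groups did not overlap. *Lyz2* took 0.0609% of all reads in undifferentiated cells, 0.310% at GCSF 0h, 3.37% at IL3-OHT 168h and 5.64% at GCSF-OHT 168h. The mean at GCSF 0h was 4.24-fold that of undifferentiated cells, where GCSF, the removal of IL3 and 48 h of culture cannot be told apart. The mean at GCSF-OHT 168h was 20.6-fold that of GCSF 0h and 87.3-fold that of undifferentiated cells. In IL3 the mean at 168h lay 56.8-fold above them.

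In the tests, the log2 difference of *Lyz2* was 2.08 for the GCSF pre-treatment (SE 0.06, adjusted p = 1.43e-59) and 4.37 for OHT in GCSF (SE 0.06, adjusted p = 5.08e-93). From undifferentiated cells to 168h it was 6.45 in GCSF and 5.83 in IL3. The log2 change from 0h to 168h was thus smaller in GCSF, which started higher, than in IL3. The difference between these changes was -1.46 (SE 0.08, adjusted p = 2.50e-31).

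On the log2 scale, the largest difference of *Lyz2* between consecutive time points after OHT, which lie unequally far apart, was that from 4h to 8h in both courses. In IL3 the mean went from 15641 at 1h to 31634 at 3h, 95182 at 8h, 151082 at 12h and 279378 at 24h, and steps were called at 3h (log2 difference from 2h 0.63), 8h (from 4h 1.27) and 12h (from 8h 0.67). In GCSF it went from 72059 at 1h to 241406 at 8h and 489023 at 24h, and the step from 4h to 8h was called (0.96). *Lyz2* was called higher than at 0h from 3h on in both courses, while its libraries at 1h and 2h already lay above those of 0h. The mean at 160h was the highest of the IL3 course, 909275 ± 34988 (SD, n = 3), and no other time point of that course overlapped it, while in GCSF 160h (1236680 ± 74426) and 168h (1237740 ± 24316) overlapped.

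The levels of *Lyz2* in the 2 courses drew together in the middle and parted again at the end. At 1h the log2 difference of GCSF-OHT from IL3-OHT was 2.20 (SE 0.06), at 24h it was 0.81, at 48h 0.59 and at 112h 0.09 (SE 0.07, adjusted p = 0.266, n = 2 in GCSF), the smallest of the 25 shared time points. At 168h it was 0.62 (adjusted p = 4.73e-17). It was called at 13 of 25 time points, all up to 48h, and 168h. The libraries of the courses did not overlap at any of the 25, GCSF-OHT being the higher.

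**Figure D1:**
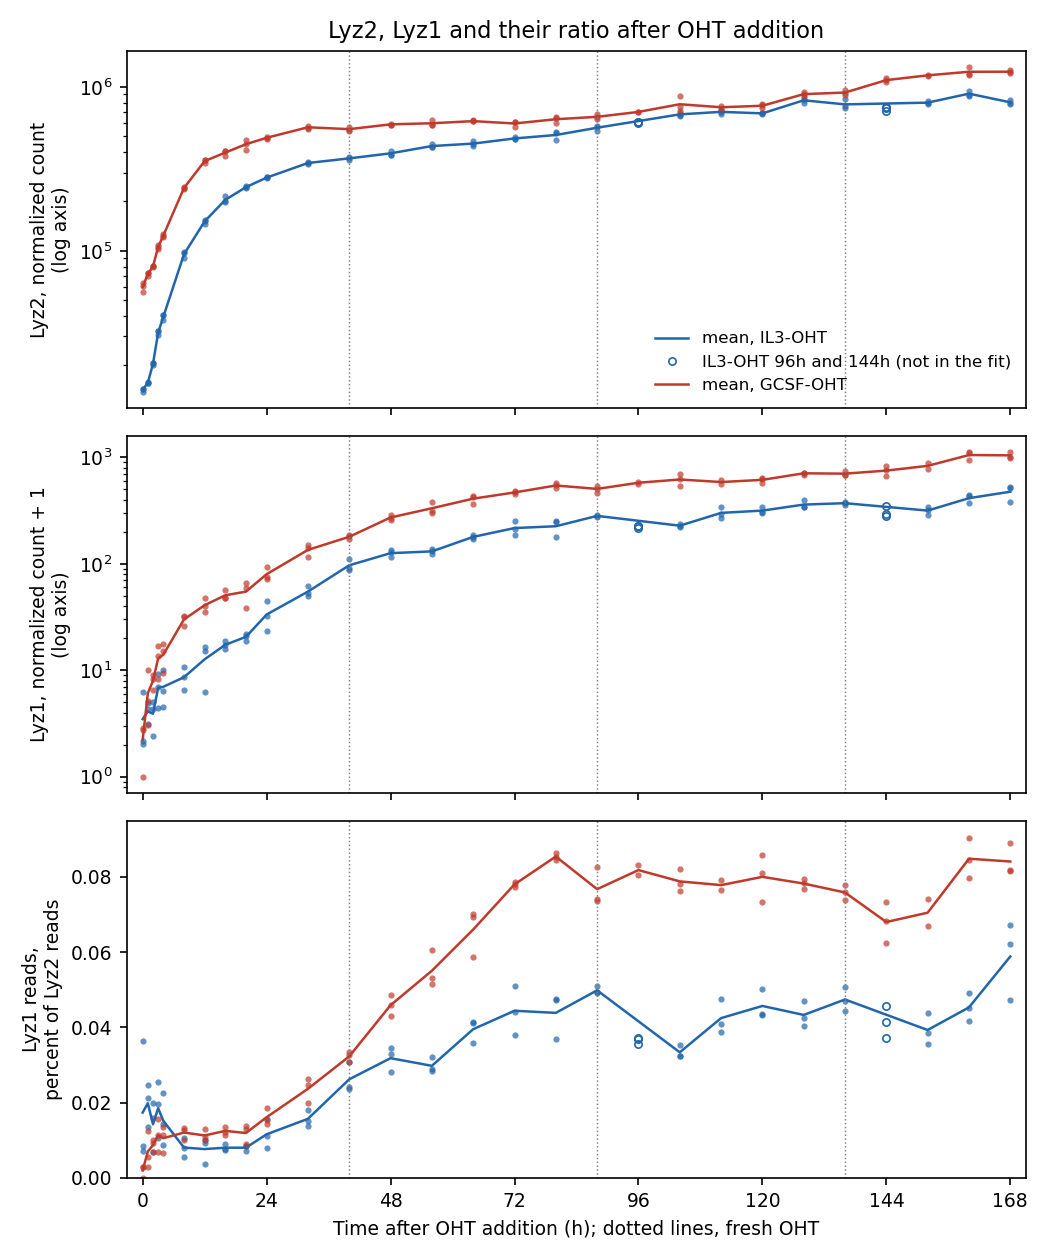
*Lyz2* (top) and *Lyz1* + 1 (middle) in normalized counts on log axes, and *Lyz1* reads as a percentage of *Lyz2* reads (bottom), against hours after OHT. Points are libraries, lines are means of IL3-OHT (blue) and GCSF-OHT (red), open circles are the left-out IL3-OHT 96h and 144h, and dotted lines mark fresh OHT. *Lyz2* is higher in GCSF-OHT at all 25 shared time points, and the *Lyz1* share at 168h is 0.0589% in IL3-OHT and 0.0841% in GCSF-OHT.

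*Lyz1*, the Paneth cell lysozyme, started at the limit of detection. The undifferentiated libraries held 4, 1 and 1 reads and those of GCSF 0h held 0, 2 and 2 reads, so no fold change is given between them. A call of the pre-treatment (log2 difference -0.60, adjusted p = 0.0473) rested on these reads, and over the alternative settings the difference ran from -1.12 to 0.42 and the adjusted p from 0.00191 to 0.475. After OHT *Lyz1* rose in both courses. Its normalized count was 375, 516 and 531 at IL3-OHT 168h (316, 564 and 563 reads) and 991, 1011 and 1123 at GCSF-OHT 168h (1007, 775 and 1313 reads), and the 2 groups did not overlap.

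Set against the few reads at the start, the pooled reads of *Lyz1* at GCSF-OHT 168h were 861-fold those of GCSF 0h (exact 95% interval 336 to 3160). At IL3-OHT 168h the interval of their ratio to those of undifferentiated cells was 95.2 to 567 (1443 against 6 reads). These intervals cover counting error only. The log2 difference was 9.03 for OHT in GCSF (SE 0.27) and 7.28 for IL3-OHT 168h against undifferentiated cells (SE 0.27), values that depend on the pseudocount since the starting groups lie at the floor. With a pseudocount of 5 in place of 1, the first of these became 7.41.

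In IL3 the mean of *Lyz1* was 7.59 normalized counts at 8h, 32.4 at 24h, 124.8 at 48h and 281 at 88h, and in GCSF 29.02, 78.8, 271 and 504 at the same times. GCSF-OHT was called higher at 24 of 25 shared time points, all but 1h. The largest log2 difference was that at 8h (1.83, SE 0.27, adjusted p = 2.09e-09), and the difference at 168h was 1.15 (adjusted p = 1.08e-04). The libraries did not overlap at 22 of the 25. The highest mean was 1049 ± 89.9 (SD, n = 3) at GCSF-OHT 160h, which overlapped 168h (1042 ± 71.6), and the highest of the IL3 course was 474 ± 85.8 at 168h, which 3 other time points overlapped.

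The share of *Lyz1* among the lysozyme reads changed with time and cytokine. It rests on how reads from the stretches that the genes share were divided between them, which was not tested. *Lyz1* reads came to 0.0174% of *Lyz2* reads in undifferentiated cells, 0.00195% at GCSF 0h, 0.00805% at IL3-OHT 8h and 0.0120% at GCSF-OHT 8h. At 80h the share was 0.0439% in IL3 and 0.0854% in GCSF, and at 168h it was 0.0589% (0.0473% to 0.0671% over the libraries) and 0.0841% (0.0816% to 0.0890%). Over the 25 shared time points the log2 ratio of *Lyz1* to *Lyz2* was on average 0.427 higher in GCSF-OHT (permutation test with cytokine labels exchanged within time points, 100000 resamples, two-sided, p = 1e-05, the smallest they can give). It was higher in GCSF-OHT at 21 time points and lower at 4 early ones, where *Lyz1* had few reads. From 12h on it was higher at 20 of 20 time points, by 0.715 on average. *Lyz1* transcripts are 1263 bases long and those of *Lyz2* 1316, so the shares per base would be nearly the same.

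*Slpi*, the elastase inhibitor, was the member that fell. Its normalized count was 41250.5, 40796.5 and 34667 in the undifferentiated libraries and 26949.7, 24611 and 27138 at GCSF 0h. The 2 groups did not overlap, and the log2 difference of -0.57 (SE 0.08, adjusted p = 1.25e-09) lay just under the size threshold. It passed the threshold when replicate 3 was left out (-0.67). At 168h the count was 41196, 41923 and 42446 in IL3-OHT and 17808, 19182 and 17045 in GCSF-OHT, so that 1 IL3 library lay within the starting range and the others just above it, and the GCSF libraries lay below all 3 other groups.

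The means of *Slpi* in IL3 dipped and came back. From 40743 ± 4897 (SD, n = 3) at 1h the mean went to 26426 ± 2250 at 8h and 23874 ± 2325 at 20h, was 25680 ± 2725 at 56h, and was then 37412 ± 1347 at 80h, 46079 ± 1494 at 112h and 50648 ± 3290 at 128h. Against undifferentiated cells the fall was called at 5 of 25 time points (12h, 20h, 24h, 32h and 56h), and the number of calls ran from 2 without replicate 1 to 8 without replicate 3. No time point was called higher than undifferentiated cells, and the log2 difference at 168h was 0.11 (adjusted p = 0.274). The libraries at 112h, 128h, 136h and 160h nevertheless all lay above those of undifferentiated cells. At 136h the lowest library held 49206 normalized counts, and the highest undifferentiated library held 41250.5.

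In GCSF *Slpi* started lower, was called below GCSF 0h in the middle of the course and was not called below it from 144h on. The mean was 32314 ± 737 (SD, n = 3) at 1h and 24844 ± 373 at 12h, next to 24056 ± 1215 in IL3. From 8h to 24h the log2 differences between the courses lay between -0.13 and 0.12. Afterwards the GCSF mean was 15828 ± 2386 at 40h and 12256 ± 684 at 96h (n = 2), the lowest of the course, and was 19164 ± 166.5 at 152h (n = 2) and 18012 ± 1083 at 168h. *Slpi* was called lower than at GCSF 0h at 12 of 27 time points, 40h and all those between 56h and 136h. Its libraries at 24h, 32h, 48h and from 144h on also lay below those of GCSF 0h. IL3-OHT was called the higher course at 14 of 25 shared time points, 40h and all those between 56h and 168h. The difference was up to 1.79 at 128h (SE 0.08, adjusted p = 1.09e-40), where IL3-OHT had 50648 and GCSF-OHT 14654 ± 277 normalized counts. The libraries did not overlap at 21 of the 25, IL3-OHT being the higher at each of these. None of the single steps of *Slpi* between consecutive time points was called, and 1 was called without replicate 2 and 1 without replicate 3.

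*Wfdc21* rose early and then moved in waves. Its normalized count was 2299, 2589 and 2420 in the undifferentiated libraries and 4089, 4333 and 4555 at GCSF 0h, without overlap (log2 difference 0.83, SE 0.07, adjusted p = 7.25e-20). At IL3-OHT 168h it was 7165, 7476 and 7104 and at GCSF-OHT 168h 10371, 11415 and 11198, again without overlap. The mean at 168h lay 2.98-fold above undifferentiated cells in IL3 (log2 difference 1.57) and 4.51-fold in GCSF (2.17).

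The courses of *Wfdc21* met within a day. At 1h the mean was 2520 in IL3 and 5098 in GCSF, and at 20h it was 9492 and 9201. In IL3 the highest mean came at 32h (9990 ± 578, SD, n = 3), with libraries of 4 other time points overlapping it, and the mean at 80h was 5625 ± 357. GCSF-OHT was called higher at 5 of 25 shared time points, 1h, 2h, 3h, 120h and 168h, with log2 differences from 0.58 to 1.02, and over all shared time points the mean difference was 0.29, under the size threshold.

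At the time points after the fresh OHT of 88h and of 136h *Wfdc21* was higher in both courses, mostly by less than the size threshold. In GCSF it was 7461 ± 166 at 88h and 9952 ± 199 (n = 2) at 96h, a log2 difference of 0.42 (adjusted p = 2.1e-05), and 7211 ± 250 at 136h and 10269 ± 662 at 144h, a difference of 0.51 (adjusted p = 1.06e-08). In IL3 it was 6090 ± 500 at 88h and 8214 ± 608 at 104h, a difference of 0.43, and 5261 ± 794 at 136h and 9284 ± 360 at 152h, a difference of 0.83, which was called. From 136h to 152h in IL3, 2781 of 17414 genes were called. The left-out IL3-OHT 96h and 144h had means of 8050 ± 205.9 and 6904 ± 729, between those of their neighbours. In GCSF *Wfdc21* was also 8330 ± 896.1 at 160h and 10995 ± 550.8 at 168h, a difference of 0.40 (adjusted p = 7.57e-06) with no fresh OHT in between. From 40h to 48h, after the earliest fresh OHT, the log2 difference was 0.01 in GCSF and 0.13 in IL3. Some of the medium was replaced together with the OHT, and each time point had a plate of its own, so these cannot be told apart. Whether any of them had a part in the rises was not tested.

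*Wfdc17*, also known as the WAP protein of activated microglia and macrophages, had the fewest reads. The undifferentiated libraries held 1, 4 and 2 reads and those of GCSF 0h 0, 4 and 1. At IL3-OHT 168h the normalized count was 121.1, 126.3 and 89.5 (at least 95 reads per library), and at GCSF-OHT 168h it was 215.4, 202.1 and 241.3. The 168h groups did not overlap with each other or with the starting groups. The pooled reads were 146-fold those of GCSF 0h in GCSF (exact 95% interval 62.2 to 451) and 41.3-fold those of undifferentiated cells in IL3 (19.8 to 104).

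The courses of *Wfdc17* differed by a call at 6 of 25 shared time points. At 40h the mean was 41.7 ± 10.4 in IL3 and 48.98 ± 1.69 in GCSF, and at 136h it was 96.0 ± 10.7 and 91.1 ± 7.79 (SD, n = 3 each). Between these times the mean of GCSF-OHT was 96.1 ± 25.3 at 48h and 56.2 ± 15.7 at 88h. From 136h to 144h it went from 91.1 to 213 ± 16.3, a called step (log2 difference 1.22, SE 0.37, adjusted p = 0.0121). It was the only called step of *Wfdc17* at counts clear of the floor, and without replicate 1 none of its steps was called. In GCSF the step to 48h (0.92 above 40h) and the step to 96h (1.05 above 88h, n = 2) had adjusted p of 0.0801 and 0.0579 and were not called. GCSF-OHT was called higher at 48h, 56h, 160h and 168h and IL3-OHT at 3h and 4h. At the last-named times the means were at most 11.7 normalized counts.

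**Figure D2:**
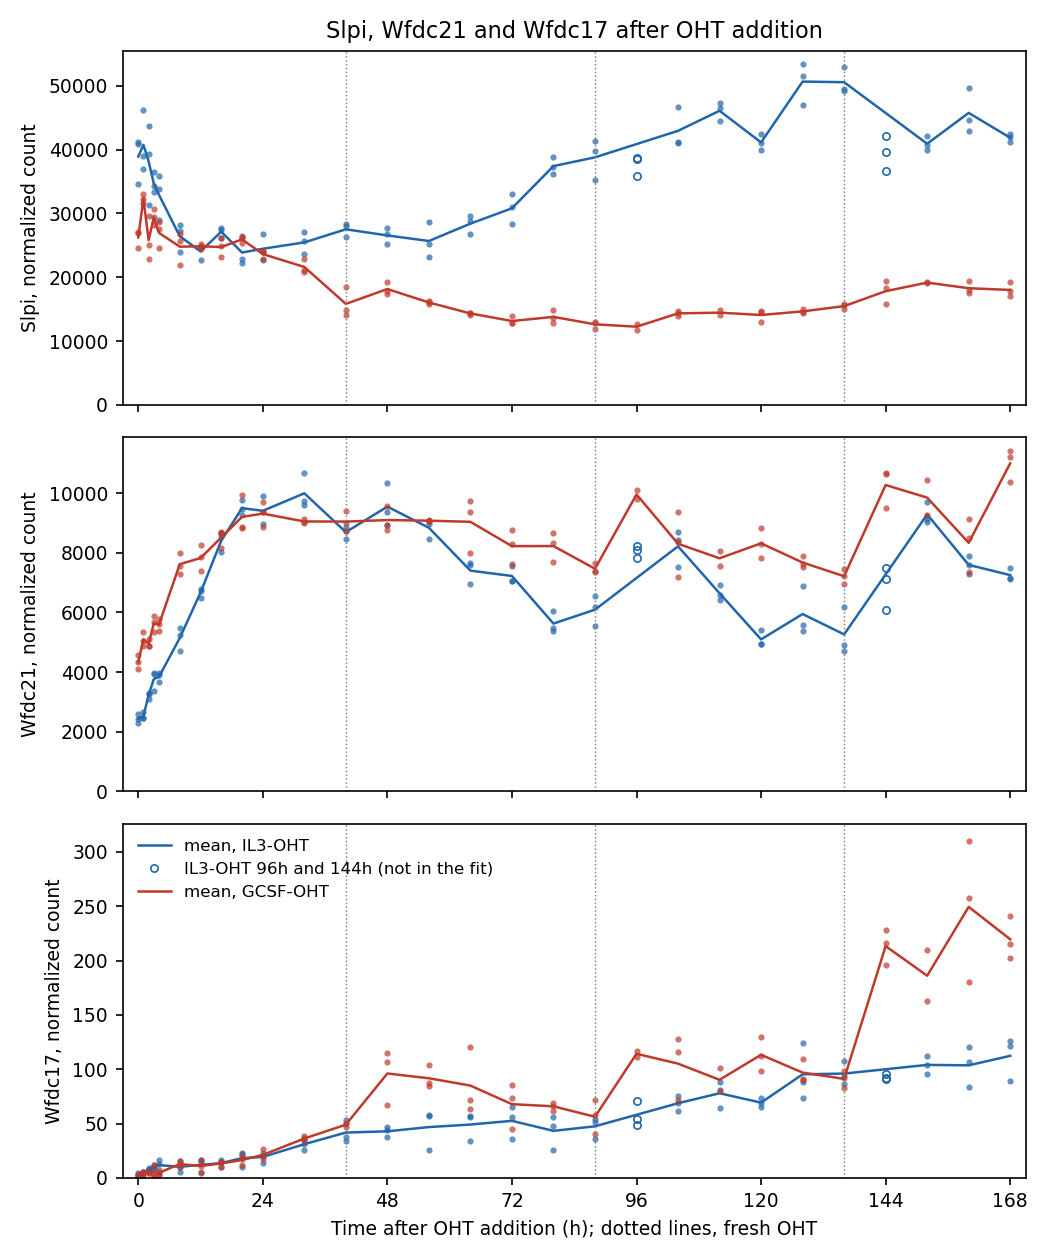
*Slpi* (top), *Wfdc21* (middle) and *Wfdc17* (bottom) in normalized counts against hours after OHT, with points for libraries, lines for means of IL3-OHT (blue) and GCSF-OHT (red), open circles for the left-out IL3-OHT 96h and 144h and dotted lines for fresh OHT. *Slpi* is at 50648 in IL3-OHT and 14654 in GCSF-OHT at 128h, while *Wfdc17* steps from 91.1 to 213 between 136h and 144h in GCSF-OHT.

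Counted over the 5 genes, *Lyz2* and *Wfdc21* were called higher after the GCSF pre-treatment, where 13% of all tested genes were higher, and *Lyz1* was called lower on its few reads, where 20.7% were lower. For OHT in GCSF, 4 were called higher (12.1% of all genes higher, 12.6% lower) and *Slpi* fell short of the size threshold (log2 difference -0.54). From undifferentiated cells to GCSF-OHT 168h, 4 were higher and *Slpi* lower (-1.11), against 15.5% of all genes higher and 23.6% lower. To IL3-OHT 168h the same 4 were higher, against 10.2% higher and 15.2% lower. The median log2 difference of the 5 genes was 6.01 in GCSF and 5.04 in IL3, beside -0.115 and -0.033 over all genes.

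All 5 changed over either course by limma's moderated F, as did 62.5% of all genes in GCSF and 69.7% in IL3. Against GCSF 0h, *Lyz1* and *Wfdc17* were called at 27 of 27 time points, *Lyz2* at 25, *Wfdc21* at 23 and *Slpi* at 12, where the share over all genes and time points was 15.4%. Against undifferentiated cells, *Wfdc17* was called at 24 of 25 time points in IL3, *Lyz1*, *Lyz2* and *Wfdc21* at 23 each and *Slpi* at 5, where the share over all genes was 26.7%. The starting groups held at most 4 reads of *Lyz1* or *Wfdc17* per library, so early calls of these genes rest on few reads. At GCSF-OHT 1h the pooled libraries held 17 reads of *Lyz1* and 14 of *Wfdc17*. Over the alternative settings *Wfdc17* was called at 23 to 27 time points in GCSF and 22 to 24 in IL3. *Lyz1* was called at 27 in GCSF and 21 to 25 in IL3. Of the steps of the 5 genes between consecutive time points, 9 of 140 were called in GCSF and 6 in IL3, at 25 steps a gene, beside 2.94% and 3.65% over all genes. The GCSF steps include the 48 h pre-treatment, which gave the calls of *Lyz2* and *Wfdc21* and 1 of those of *Lyz1*. At that step 13% of all genes were higher and 20.7% lower. The calls of *Lyz1* and *Wfdc17* at GCSF-OHT 1h, of *Lyz1* at IL3-OHT 3h and of *Wfdc17* at IL3-OHT 2h rest on few reads. In GCSF, *Lyz2* was also called from 4h to 8h.

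Between the cytokines, over the mean of the 25 shared time points, *Lyz1* (log2 difference 1.18, SE 0.05) and *Lyz2* (0.75, SE 0.01) were called higher in GCSF-OHT and *Slpi* (-0.84, SE 0.02) lower, where 9.34% of all genes were higher and 15.1% lower. *Wfdc17* (0.26) and *Wfdc21* (0.29) had adjusted p of 9.26e-04 and 1.10e-38 and stayed under the size threshold. At the 25 shared time points, *Lyz1* was called at 24, *Slpi* at 14, *Lyz2* at 13, *Wfdc17* at 6 and *Wfdc21* at 5, beside 22.7% over all genes and times. The left-out IL3-OHT 96h and 144h were set against the mean of their neighbours in a fit that held them. By limma, 0 of 10 values were called there, beside 16.4% over all genes. At an unadjusted p under 0.05 there were 2, *Wfdc21* at 96h (0.19) and *Slpi* at 144h (-0.21), both under the size threshold.

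**Figure D3:**
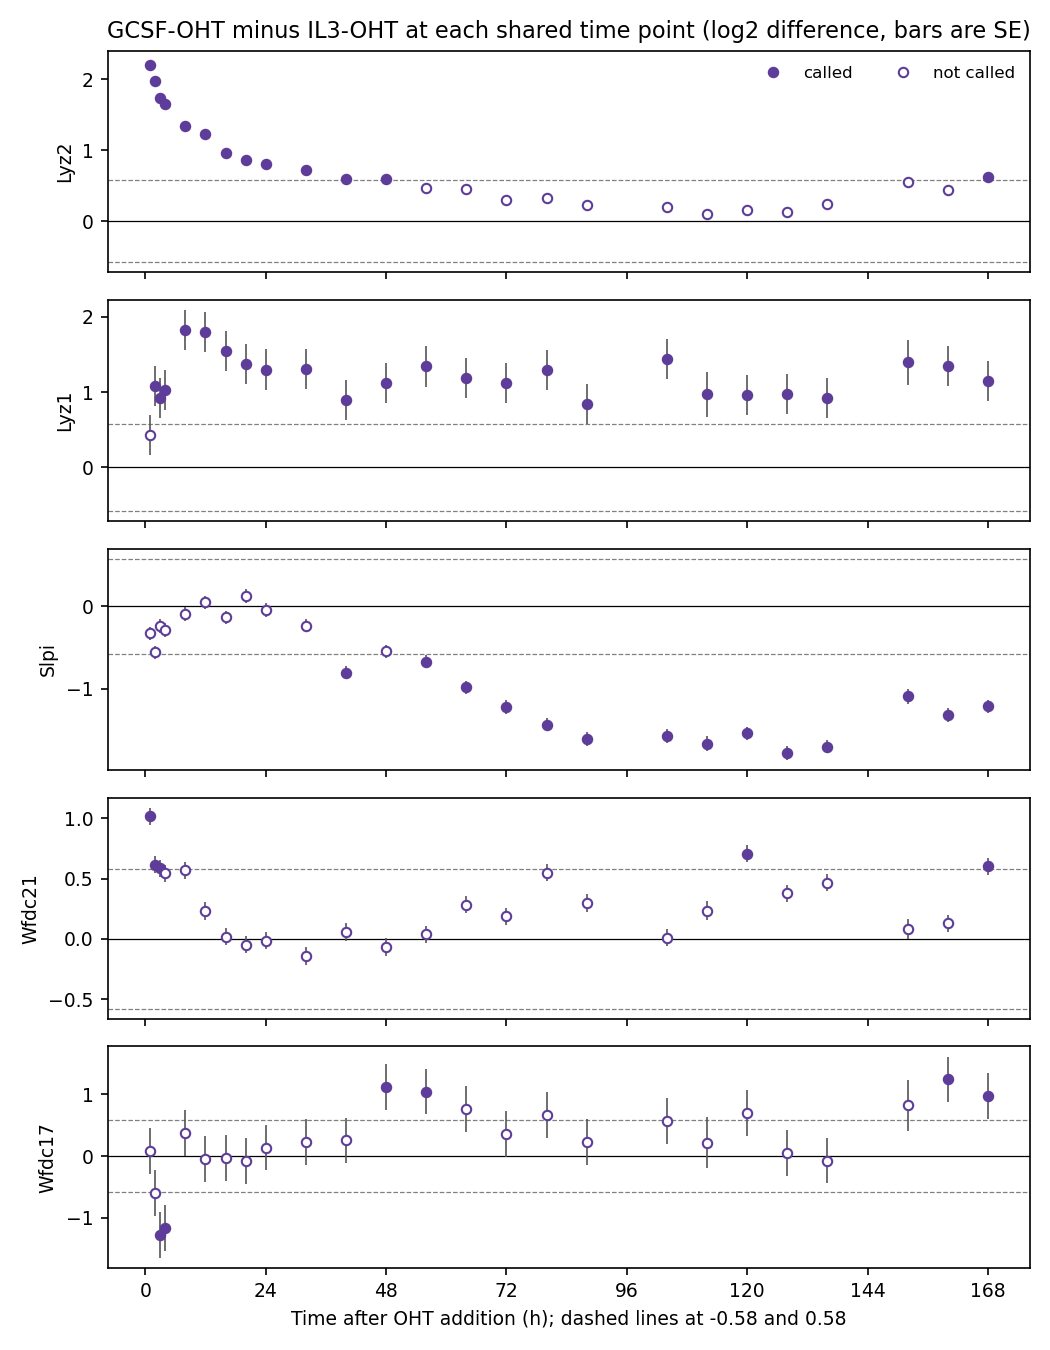
Log2 difference of GCSF-OHT minus IL3-OHT at each of 25 shared time points for the 5 genes, with bars for the SE, filled circles for called differences and dashed lines at the size threshold of 0.58. *Lyz2* comes down from 2.20 at 1h to 0.09 at 112h, *Lyz1* stays above 0, and *Slpi* goes to -1.79 at 128h.

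The change from 0h to 168h differed between the cytokines for 4 of 5 genes, beside 25.7% of all genes. It was larger in GCSF for *Lyz1* (1.75, adjusted p = 4.48e-05) and *Wfdc17* (1.70, adjusted p = 0.00464), whose starting groups lie at the floor. The rise of *Lyz2* was smaller in GCSF (-1.46). For *Slpi* the difference was -0.65. The mean of *Slpi* at 168h was 0.687-fold that of GCSF 0h in GCSF and 1.08-fold that of undifferentiated cells in IL3. *Wfdc21* had -0.23 (adjusted p = 0.0578). On whole reads, edgeR and DESeq2 called *Lyz2* and *Slpi* but not *Lyz1* (adjusted p = 0.0783 and 0.0576) or *Wfdc17* (adjusted p = 0.148 and 0.0874). Over all alternative settings the adjusted p of *Lyz1* ran from 1.88e-06 to 0.308, the highest without replicate 1, and that of *Wfdc17* from 0.00235 to 0.148. Without replicate 3 *Slpi* (-0.50) fell under the size threshold.

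The other lysozyme genes were at or under the detection floor, and a few other WFDC genes were expressed. All 8 other lysozyme family genes looked up (*Lyzl1*, *Lyzl4*, *Lyzl6*, *Lyg1*, *Lyg2*, *Spaca3*, *Spaca5* and *Lalba*, the milk protein lactalbumin) had at most 2 reads in any library. Of 19 other WFDC family genes 7 were tested, and 3 of them reached 100 normalized counts in any library, *Wfdc12*, *Wfdc15a* and *Wfikkn1*. *Wfdc15a* had means of 215.5 in undifferentiated cells, 192.1 at IL3-OHT 168h and 190.2 at GCSF-OHT 168h and was not called. *Wfdc12* was called higher at IL3-OHT 168h (log2 difference 1.02, SE 0.16, adjusted p = 1.08e-08), from a mean of 81.6 to 168 normalized counts. *Wfdc3* was called lower there (-1.67) and *Wfdc1* lower at GCSF-OHT 168h (-0.78), on at most 11 and 5 reads per library. The other 5 in IL3 and 6 in GCSF were not called, and the median of the 7 was -0.082 and -0.368, beside -0.033 and -0.115 over all genes.

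Genes of granule and secreted antimicrobial proteins went with the lysozymes only in part. Of 16, 10 rose and 3 fell from undifferentiated cells to GCSF-OHT 168h, where 15.5% of all genes were higher and 23.6% lower (median log2 difference 1.94, beside -0.115 over all genes). The largest rises were those of *Mmp9* (7.73), a gelatinase, *Chil3* (6.12), a chitinase-like protein, *Mmp8* (3.24), a collagenase, and *Lcn2* (3.14), which binds bacterial siderophores. The 3 that fell were *Pglyrp1* (-1.93), a protein that binds peptidoglycan, *Ctsg* (-1.03) and *Elane* (-0.71). In IL3 6 rose and 4 fell, where 10.2% of all genes were higher and 15.2% lower (median 0.027, beside -0.033). *Chil3* rose by nearly the same amount (6.09), *Mmp9* by 5.37, *Ltf*, which encodes lactoferrin, by 4.61 and *Mmp8* by 2.86. Over the shared time points 10 were higher in GCSF-OHT and 6 were not called, where 9.34% of all genes were higher and 15.1% lower (median 0.855, beside -0.062).

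From undifferentiated cells to 168h, genes of the proteases that SLPI inhibits were called lower in both courses, and *Slpi* in GCSF alone. *Elane*, which encodes neutrophil elastase, went from a mean of 108100 normalized counts in undifferentiated cells to 28720 at IL3-OHT 168h (log2 difference -1.91, SE 0.07) and 66130 at GCSF-OHT 168h (-0.71, SE 0.07). *Ctsg*, which encodes cathepsin G, changed by -1.63 in IL3 and -1.03 in GCSF. At GCSF 0h both means lay above those of undifferentiated cells, with 116400 for *Elane* and 59690 against 36820 for *Ctsg*. The highest library of the series held 165200 normalized counts of *Elane*, so the endpoints do not give its whole course. *Prtn3*, which encodes proteinase 3, had -0.57 and -0.08 and was not called. Of 8 tested genes of serine proteases, their inhibitors and progranulin, 4 fell in IL3, the other 2 being *Prss57* (-1.23), a protease of neutrophil granules, and *Serpinb1a* (-0.87), an elastase inhibitor of the serpin family (15.2% of all genes were lower, and the median of the list was -0.722). In GCSF *Prss57* rose (1.68) while *Elane*, *Ctsg* and *Serpinb1a* (-1.09) fell (15.5% of all genes were higher and 23.6% lower, and the median was -0.213). *Grn*, whose product progranulin is cut by elastase and shielded by SLPI, had -0.13 in IL3 and -0.34 in GCSF and was not called.

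**Figure D4:**
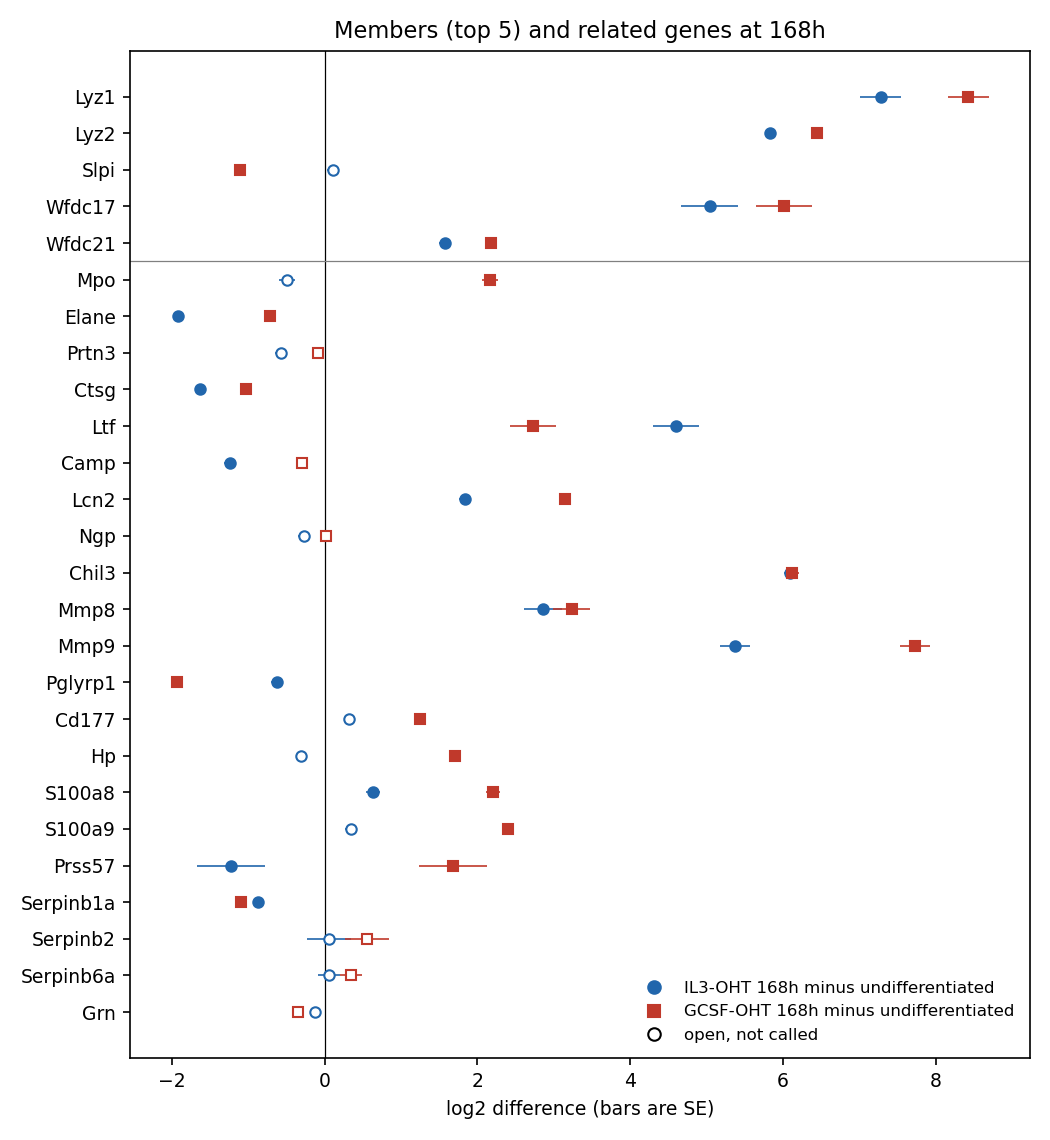
Log2 difference from undifferentiated cells to 168h in IL3-OHT (blue circles) and GCSF-OHT (red squares) for the 5 genes (above the line) and for genes of granule proteins, proteases and inhibitors, with bars for the SE and open symbols for differences that were not called. *Slpi* lies at 0.11 in IL3-OHT and -1.11 in GCSF-OHT, and *Elane* at -1.91 and -0.71.

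Across the 54 group means on the log2 scale, *Lyz1* and *Wfdc17* followed nearly the same pattern (Pearson's r 0.961), as did *Lyz1* and *Lyz2* (0.938). *Slpi* ran against *Lyz1* in GCSF-OHT (r -0.865 over 27 time points) and loosely with it in IL3-OHT (0.459 over 25). Among 12298 genes with a mean of at least 10 normalized counts, those most like *Lyz1* were *Chil3* (0.966), *Retnlg* (0.963) and *Nfam1* (0.960), and those most like *Lyz2* were *Nfam1* (0.965), *Pirb* (0.962) and *Il15ra* (0.959). Those most like *Wfdc17* were *Cyp2a5* (0.967), *Retnlg* (0.964) and *Kcnj10* (0.956). The genes most like *Slpi* were *Npc2* (0.965), *Sparc* (0.952) and *Rps15* (0.952), and those most like *Wfdc21* were *Lair1* (0.930), *Ggt5* (0.926) and *Sh3kbp1* (0.910). These points are mostly consecutive time points of cells from a single line, so the correlations are given as descriptions.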

How the data were processed

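RNA was sequenced in 165 libraries of PUER cells. The authors estimated counts per gene with Salmon (build GRCm38, paired reads) and deposited them divided by DESeq2 size factors, so the deposited signal is a normalized count. Dividing each value by what 1 read was worth in its library gave whole reads (100% of values, largest relative deviation 9.66e-15). The annotation release is not given in the sources used here. Samples were grouped by cytokine, OHT and time from the labels, and replicates were separate wells. Genes reaching 5 normalized counts in a library were tested by limma 3.58.1 with a trend on log2(normalized count + 1), 1 mean per group, with Benjamini-Hochberg adjustment within each comparison over all genes tested. Alternatives were pseudocounts of 0.5 and 5, other filters, upper-quartile scaling, left-out replicates, a replicate block, and edgeR 4.0.16 and DESeq2 1.42.0 on the whole reads (R 4.3.3). Code was tested on simulated data. Ratios of pooled reads carry exact intervals, and 3 reads per library was the floor. Genes named beyond the 5 come from lists or are the 3 most correlated with each. The 5 genes and all lists were chosen with earlier results of these data known.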

Additional observations from a re-analysis of the deposited data

Results flagged for a closer look

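The change of expression from 0h to 168h differed between GCSF and IL3, by a test of the difference itself, for 4 of the 5 genes. The log2 difference between the changes was 1.75 for *Lyz1*, 1.70 for *Wfdc17*, -1.46 for *Lyz2* and -0.65 for *Slpi* (adjusted p from limma 4.48e-05, 0.00464, 2.50e-31 and 7.60e-07). GCSF 0h differs from undifferentiated cells, so the changes start from different levels. For *Lyz1* and *Wfdc17* those levels are a few reads per library. All groups held 2 or 3 libraries, too few for the test for a sample far from the others.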

How the results depend on the processing

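Of the summary counts, that of genes whose change differed between the cytokines moved by over 1.5 times. It was 4 of 5 and became 2 with edgeR, 2 with DESeq2 and 2 to 4 with a replicate left out, *Lyz1* and *Wfdc17* being the genes lost by both tools. Their starting groups hold at most 4 reads per library. The change of *Lyz1* from undifferentiated cells to GCSF 0h was -0.60 and ran from -1.12 to 0.42 with a replicate left out, the positive value being that without replicate 1, which holds 4 of the 6 reads of the undifferentiated libraries. Without replicate 2 *Slpi* passed the size threshold for OHT in GCSF (-0.63). Of the other values, 807 stayed the same, meaning that no call changed or that a count stayed within 1.5 times. Uncalled differences that changed sign are among them. Another 22 counts moved, 12 differences were weaker, 3 were stronger and 1 was reversed, that of *Lyz1* named above. Replicate numbers did not pair the samples (mean correlation of deviations -3.7e-05 over 3825 pairs of the same number, 22.6% of them over 0.1), and with a replicate block the count of genes whose change differed between the cytokines was 4, as without it. The mean log2 ratio of *Lyz1* to *Lyz2* between the cytokines ran from 0.381 to 0.454 with a replicate left out. Chi-square values per gene between replicates ran up to 82.6 (median 6.46). Replicate 3 of GCSF-OHT 104h held 884251 normalized counts of *Lyz2* against 756847 and 710013, and leaving it out, chosen after seeing the data, kept 9 called steps in GCSF and 3 genes called between the cytokines. Depth limits *Lyz1* and *Wfdc17* before OHT. The cause of these differences between settings was not tested.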
